A study of Mus musculus with 6 samples.

Results

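Foxf1, Foxf2, Foxc1, Foxc2, Foxd1, Foxd2 and Foxp2 are 7 forkhead transcription factor genes used here as a set because they are known from embryonic mesenchyme. They were found by their gene symbols, each of which matched 1 row among 32285 genes, 44 of which carry a forkhead (Fox) symbol. Their levels were described across cells of the microdissected cardiogenic region of wild-type C57BL/6 mouse embryos at E10.5 (embryonic day), where the labels also list non-cardiac mesoderm, ectoderm and endoderm. The study had 3 samples from vehicle-pretreated normal glycemic dams and 3 from streptozotocin-pretreated hyperglycemic dams, with normal glycemic sires in both cases. Streptozotocin is a toxin of the insulin-producing beta cells, so the second group models maternal diabetes.

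Forkhead proteins bind DNA through a winged-helix domain, and several of them act in mesoderm and neural crest where these tissues answer hedgehog signals from the neighbouring endoderm. Foxf1 and Foxf2 are genes of splanchnic (gut and lung) mesenchyme and are known hedgehog targets. Foxc1 and Foxc2 act in somites, arch arteries, outflow tract and eye, Foxd1 in kidney stroma and pericyte lineages, and Foxp2 in lung and brain. The mesenchyme of the cardio-pharyngeal region comes from several sources, namely neural crest that fills the pharyngeal arches, splanchnic and pharyngeal mesoderm beside the gut and heart, paraxial mesoderm, and endocardium that gives rise to cushion mesenchyme.

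The transcripts were counted as unique molecular identifiers (UMIs, 1 per captured RNA molecule) in 6 libraries, which are numbered 1 to 6 by the suffix of their cell barcodes. No file used here ties a library number to a dam, so the vehicle and streptozotocin groups were not compared, and the 6 libraries are given as samples with no group. Barcodes with at least 2500 genes and at most 10% mitochondrial UMIs were kept, which left 35962 of 53362. The libraries held between 4903 and 7136 kept cells with median depths of 30533 to 35634 UMIs. Kept cells in more than 1 library shared 141 barcode sequences, which touched 283 cells.

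Cells were assigned to types by counting detected markers, none of which is a forkhead gene. Foregut mesoderm (1421 cells) carried a median of 5 of 8 markers such as Tbx4, Tbx5, Osr1 and Nkx6-1. Paraxial mesoderm (473 cells) carried 4 of 8, such as Meox1, Meox2 and Pax3. Crest mesenchyme (6044 cells) carried 6 of 10, such as Dlx5, Dlx6 and Prrx1. Endocardial cells (1203) carried 10 of 10 endothelial markers and 4 of 5 endocardial ones, such as Npr3 and Nfatc1. Pharyngeal mesoderm numbered 1090 cells. A further 7722 cells, 21.47% of those kept, held general mesenchymal markers but passed no single gate and are called ungated mesenchyme. Libraries 1 and 2 stand apart from the rest, since only 47 and 48 of the foregut cells came from them, against 248 to 454 from each of the other libraries. Library 1 also held 12 paraxial cells, below the 20 needed for a library value.

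A level is the summed UMI count of a gene over all UMIs of a type, scaled to 1000000 UMIs (CPM), with a 95% exact Poisson interval that covers counting error only. Cells are not replicates, and libraries of unknown group are not replicates of 1 condition, so no p-value was computed. The spread between libraries is given instead, and it may hold both maternal groups.

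The 7 genes did not share 1 home. Foxf1, Foxf2 and Foxp2 were highest in foregut mesoderm, Foxc1 and Foxd1 in paraxial mesoderm, Foxd2 in crest mesenchyme, and Foxc2 in endocardial endothelium. The leading type was a mesenchyme for 6 of the 7, while Foxc2 led in an endothelium. The genes were picked as known from mesenchyme, so this is no test of the name. Of all 11944 genes that reach 10 CPM in some type, 4.873% were highest in foregut mesoderm. The shares were 2.989% for paraxial mesoderm and 5.534% for crest mesenchyme. For 6 of the 7, the exception being Foxf2, the leading type lay above the next in every library compared. Over all genes with at least 5 CPM in their highest type, 43.5% did so. The count of 6 was 2 with whole clusters in place of gates, 3 after thinning to 5000 UMIs, and 4 with 1 marker more in every gate or with doublets removed. Further down the order the steps were small. Over 91 pairs of neighbouring types that could be compared in at least 2 libraries, the ranges of the libraries stood apart for 4 pairs, all of them the step from first to second place of Foxf1, Foxc2, Foxd1 and Foxp2. The foregut cells had a UMI of at least 3 of the 7 genes in 78.68% of cases, paraxial cells in 56.45%, crest mesenchyme in 53.82% and erythroid cells in 2.015%. After each cell was thinned to 5000 UMIs, to even out depth, these shares were 28.85%, 22.83%, 5.212% and 0.278%.

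**Figure D1:**
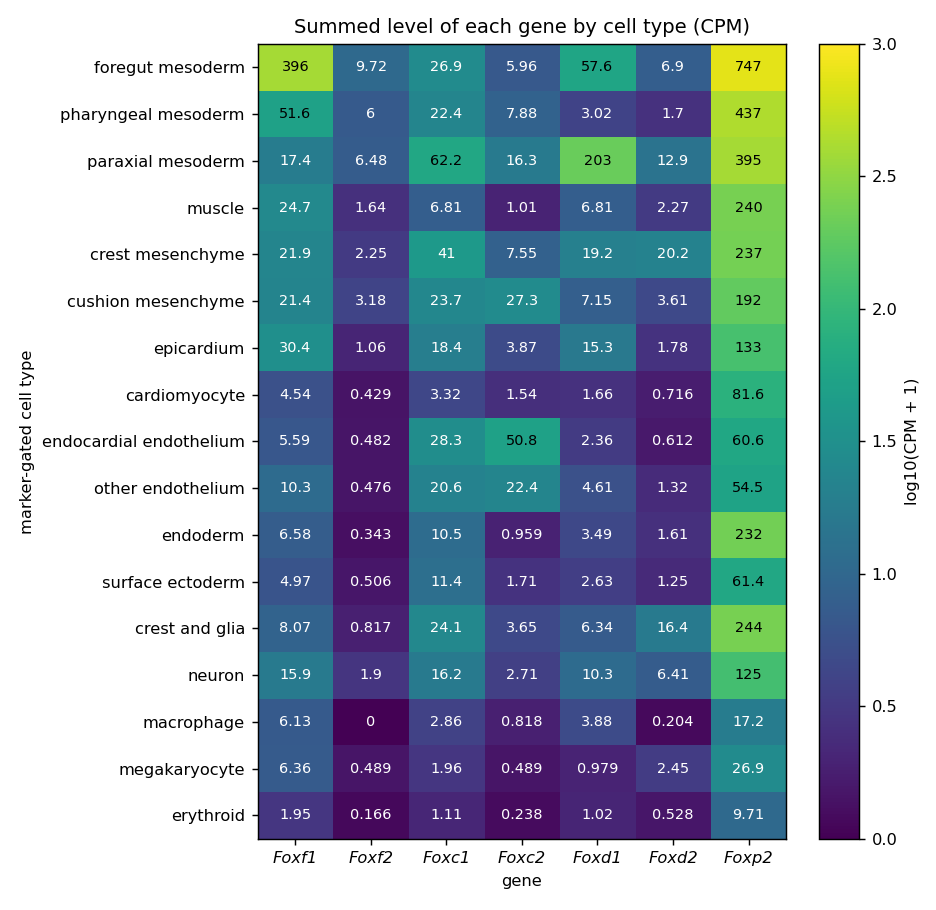
Summed level (CPM, printed in each square) of the 7 genes in 17 marker-gated cell types, with colour on a log10(CPM + 1) scale. Foxf1 and Foxp2 are brightest in foregut mesoderm at 395.5 and 747 CPM, Foxd1 in paraxial mesoderm at 203.4 CPM and Foxc2 in endocardial endothelium at 50.83 CPM.

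Foxf1 (ENSMUSG00000042812), a regulator of lung and gut mesenchyme, marked the foregut mesoderm. Its summed level there was 395.5 CPM (95% interval 389.6 to 401.4, 17377 UMIs), and 93.03% of the cells had a Foxf1 UMI. The libraries 1 to 6 gave 126.2, 87.04, 273.4, 479.3, 430.4 and 457.5 CPM, so libraries 1 and 2 were low and libraries 4 to 6 high. Pharyngeal mesoderm followed among the named types at 51.6 CPM, with 38.8, 49.85, 21.85, 60.17, 73.21 and 51.5 CPM in the 6 libraries. Ungated mesenchyme lay above it at 89.19 CPM and held 35.26% of all Foxf1 UMIs, against 31.54% in foregut mesoderm, and the remaining ungated cells had 98.18 CPM. The foregut level was 7.665-fold that of pharyngeal mesoderm, higher in 6 of 6 libraries and with no overlap between the 2 ranges. Epicardium (30.4 CPM), muscle progenitors (24.71 CPM), crest mesenchyme (21.89 CPM) and cushion mesenchyme (21.39 CPM) came next, and the libraries did not separate these neighbours. In erythroid cells, which should lack the gene, the level was 1.947 CPM. At equal depth 74.88% of foregut cells and 0.6949% of erythroid cells had a Foxf1 UMI. The median depths before thinning were 29252 and 64979 UMIs.

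The low Foxf1 values of libraries 1 and 2 went with a different make-up of the foregut class. Clusters of cells were computed without any forkhead gene and are called by number and leading genes. Cluster 12 (Ifitm1, Osr1), cluster 13 (Cxcl13, Ppfia2, Nkx6-1) and cluster 36 (Cxcl13, Adamts20, Nrg1) held 37.09%, 35.19% and 12.6% of foregut cells. Foxf1 was at 360.1, 495.8 and 466.4 CPM in the foregut cells of these clusters. Cluster 13 made up 4.255% and 8.333% of the foregut cells of libraries 1 and 2 but between 32.88% and 40.53% in the others. Cluster 36 was absent from foregut cells of libraries 1 and 2 (0%) and made up 9.639% to 22.18% in the others. Cluster 33 (Tbx18, Wt1) held 35 foregut cells, which had only 57.07 CPM of Foxf1. It made up 12.77% and 14.58% of the foregut cells of libraries 1 and 2, from 6 and 7 cells. In the other libraries its share was 0.6024% to 2.823%. Within clusters 12, 13 and 28, libraries 1 and 2 lay below libraries 4 to 6 wherever they had at least 20 cells. Against library 3 the picture was mixed. Cluster 12 had 107.2 and 79.93 CPM in libraries 1 and 2 and 226 to 384 CPM in libraries 3 to 6. Cluster 13 had 271.9 CPM in library 2, 294.1 CPM in library 3 and 453.3 to 505.8 CPM in libraries 4 to 6. Cluster 28 (Aldh1a2, Irx1, Rspo2) had 199 and 237.9 CPM in libraries 1 and 2. Both values lay above the 152.8 CPM of library 3 and below the 262.4 to 318.8 CPM of libraries 4 to 6. The part of cell make-up in the summed difference was not tested further.

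Foxf2 (ENSMUSG00000038402), the paralogue of Foxf1 with roles in palate and in brain pericytes, was sparse. Its foregut level was 9.719 CPM (8.819 to 10.69, 427 UMIs), and 21.32% of foregut cells had a UMI. The 6 libraries gave 3.411, 4.112, 10.4, 10.92, 9.131 and 10.59 CPM, again with libraries 1 and 2 lowest. Paraxial mesoderm stood at 6.477 CPM from 92 UMIs and pharyngeal mesoderm at 5.998 CPM. Foregut lay above paraxial mesoderm in 3 of 5 libraries, so the order of these types is not resolved by the libraries. With whole clusters in place of gates the order turned, with 20.24 CPM in paraxial and 11.71 CPM in foregut mesoderm. Ungated mesenchyme held 55.22% of all Foxf2 UMIs, at 10.94 CPM. Macrophages had 0 Foxf2 UMIs and erythroid cells 0.1657 CPM.

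Foxf1 and Foxf2 lie on different chromosomes. In the GRCm38 build (mm10, the submitters' build) with GENCODE M21 models, Foxf1 spans chr8:121084386-121088144 on the plus strand with 2 exons. The long noncoding RNA gene Fendrr starts 1.3 kb away on the other strand. Foxc2, a gene of 1 exon at chr8:121116171-121118895, starts 31.8 kb from Foxf1, and Foxl1, a mesenchymal forkhead gene of the gut, starts a further 11.8 kb on. Foxf2 (chr13:31625816-31631403, plus strand, 2 exons) and Foxc1 (chr13:31806633-31812476, plus strand, 1 exon) start 180.8 kb apart. No gene of the count table shares exon bases with any of the 7 genes.

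Neighbours on the chromosome therefore differ in where they were high. Fendrr (80.89 CPM) and Foxl1 (21.14 CPM) were highest in foregut mesoderm like Foxf1, with 6.155 CPM in pharyngeal mesoderm for Fendrr and 3.802 CPM in paraxial mesoderm for Foxl1 as the next values. Foxc2, which lies between Foxf1 and Foxl1, was at 5.963 CPM in foregut mesoderm. Mthfsd, a broadly expressed neighbour, was highest in epicardium at 17.76 CPM. Among 11779 genes compared over the 17 types, Fendrr had the pattern nearest to Foxf1 (Pearson r of log2(CPM + 1) 0.9546), followed by Adamts20 (0.9133), Kcnh5 (0.8654) and Adgrb3 (0.849). For Foxf2 the nearest were Sned1 (0.9415), Gm5127 (0.9194), Saa2 (0.8772) and Saa1 (0.8711). These correlations describe 17 types from the same libraries and carry no test. Foxf1 and Foxf2 had the highest r of any 2 of the 7 genes, 0.8537, and Foxf1 with its neighbour Foxc2 had 0.29.

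Foxc1 (ENSMUSG00000050295), known from somites, skull and the anterior eye, was found in paraxial mesoderm, crest and endothelium. It reached 62.17 CPM in paraxial mesoderm (58.13 to 66.41, 883 UMIs), with 56.7, 37.6, 53.77, 73.04 and 64.26 CPM in libraries 2 to 6. Crest mesenchyme was second at 41.02 CPM (40.22 to 41.84, 9973 UMIs), and its libraries 1 to 6 gave 41, 41.76, 36.84, 39.97, 40.62 and 45.31 CPM. Paraxial mesoderm was 1.516-fold higher and lay above crest mesenchyme in 5 of 5 libraries, although the 2 ranges overlap because of library 3. Endocardial endothelium (28.34 CPM), foregut mesoderm (26.93 CPM), crest and glial cells (24.07 CPM), cushion mesenchyme (23.66 CPM) and pharyngeal mesoderm (22.36 CPM) formed a plateau whose neighbours the libraries did not separate. Erythroid cells stood at 1.108 CPM. At equal depth 24.31% of paraxial, 17.32% of crest mesenchyme and 0.2085% of erythroid cells had a Foxc1 UMI. The genes with the nearest pattern were Myo19 (0.9202), Fam149a (0.92), Nploc4 (0.9083) and Mindy4 (0.9039).

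Foxc2 (ENSMUSG00000046714), a gene of arch arteries and of lymphatic and venous valves, was highest in endocardial cells. Endocardial endothelium stood at 50.83 CPM (48.94 to 52.77, 2739 UMIs), and 71.82% of its cells had a UMI. The 6 libraries gave 50.19, 56.91, 50.61, 38.98, 52.88 and 48.17 CPM. Cushion mesenchyme, which forms from endocardium, was second at 27.32 CPM, with 35.09, 24.88, 31.52, 23.81, 21.82 and 21.76 CPM. The endocardial level was 1.861-fold higher, in 6 of 6 libraries and without overlap. Other endothelium followed at 22.44 CPM and paraxial mesoderm at 16.26 CPM, while crest mesenchyme had 7.552 CPM and erythroid cells 0.2382 CPM. At equal depth the share of cells with a UMI was 20.37% in endocardial, 11.74% in cushion and 0% in erythroid cells. The genes with the nearest pattern were Bgn (0.892), Itpr2 (0.8731), Gm30648 (0.8724) and Adcy4 (0.8691).

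Foxc1 and Foxc2 thus overlapped in endocardium, cushion and paraxial mesoderm, with r of 0.7821 between them. Of their summed UMIs, crest mesenchyme held 32.74% for Foxc1 and 16.24% for Foxc2. Endocardial cells held 24.23% of the UMIs of Foxc2 and ungated mesenchyme 24.09%. Among clusters, cluster 5 (Ebf2, Lum, Fst), which is mostly ungated and paraxial cells, was second for Foxc2 at 43.92 CPM. With whole clusters in place of gates, paraxial mesoderm (35.15 CPM of Foxc2) lay above other endothelium (29.7 CPM) and cushion mesenchyme (16.73 CPM). The cushion class of that setting held only 101 cells, against 477 by gate, and was unlike the gated one. It had 16.08 CPM of Foxp2 and 92.63 CPM of Foxf1, against 191.7 and 21.39 CPM by gate.

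Foxd1 (ENSMUSG00000078302; chr13:98354242-98359305, plus strand, 1 exon), a marker of stromal and pericyte progenitors, was high in paraxial mesoderm and, at a lower level, in foregut mesoderm. The paraxial level was 203.4 CPM (196 to 211, 2889 UMIs), with 223.6, 128.6, 228.5, 221.8 and 177.9 CPM in libraries 2 to 6. It was 122.1 CPM when every gate asked for 1 marker more. Foregut mesoderm was second at 57.65 CPM (55.43 to 59.94), with 3.411, 18.5, 51.88, 59.33, 68.97 and 59.29 CPM in the 6 libraries. Paraxial mesoderm was 3.528-fold higher in 5 of 5 libraries with no overlap. Crest mesenchyme (19.2 CPM) ranged from 10.17 CPM in library 6 to 35.1 CPM in library 3, and pharyngeal mesoderm had only 3.015 CPM against 1.025 CPM in erythroid cells. At equal depth 46.93% of paraxial, 22.59% of foregut and 0.6949% of erythroid cells had a Foxd1 UMI. The genes with the nearest pattern were S1pr3 (0.8815), Sned1 (0.828), Gm48742 (0.8135) and Saa2 (0.8077).

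The gates missed most of the cells rich in Foxd1. Ungated mesenchyme held 51.97% of all Foxd1 UMIs, at 69.55 CPM, and its libraries 1 to 6 gave 7.323, 33.65, 39.23, 97.78, 118.5 and 75 CPM. Cluster 5 (Ebf2, Lum, Fst, Cyp26a1, Meox2) alone held 45.98% of the Foxd1 UMIs in 3.751% of the kept cells. Of its 1349 cells 74.57% were ungated mesenchyme, and 86.75% of the 317 that passed a gate were paraxial. Foxd1 stood at 343 CPM in cluster 5 (337.3 to 348.9), with 427.1, 530.4, 317.5, 370.4 and 291.2 CPM in libraries 2 to 6. The same cells had 100.8 CPM of Foxc1, 43.92 CPM of Foxc2, 25.62 CPM of Foxf2 and 575.7 CPM of Foxp2. Cluster 5 had 1 cell from library 1 and 28 from library 3, against 272 to 536 from libraries 4 to 6. Libraries with few cluster 5 cells were the ones with low Foxd1 in ungated mesenchyme.

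The paraxial class itself was split. Its cells in cluster 5 (58.14% of the class) had 326.4 CPM of Foxd1 and 97.61 CPM of Foxc1. Its cells in cluster 40 (Pax3, Lbx1, Tcf15; 30.02% of the class), a set led by genes of migrating muscle precursors, had 23.94 and 12.83 CPM. The leading position of paraxial mesoderm for both genes therefore rests on its cluster 5 cells.

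**Figure D2:**
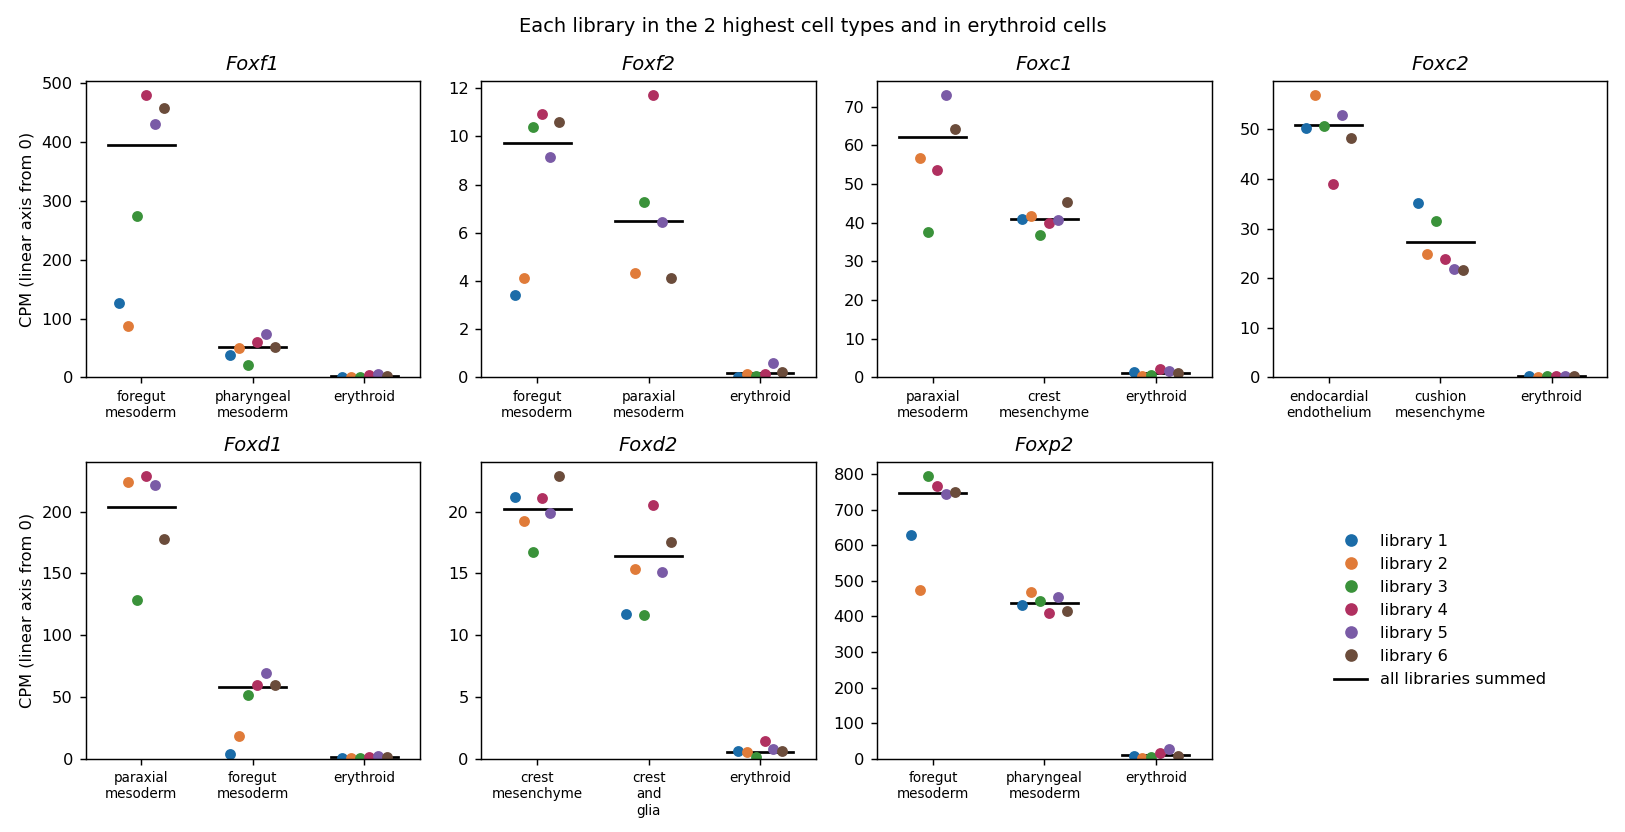
Level (CPM, linear axis from 0) of each gene in its 2 highest cell types and in erythroid cells, with a point per library that has at least 20 cells of the type and a black bar for all libraries summed. Libraries 1 and 2 lie lowest for Foxf1, Foxf2, Foxd1 and Foxp2 in foregut mesoderm, and every library lies near 0 in erythroid cells.

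Foxd2 (ENSMUSG00000055210; chr4:114906282-114908873, minus strand, 1 exon) is a forkhead gene of branchial arch and kidney mesenchyme. It was the member that led in crest mesenchyme, at 20.19 CPM (19.63 to 20.76, 4908 UMIs), and 45.37% of these cells had a UMI. The libraries were close together, at 21.17, 19.24, 16.73, 21.06, 19.86 and 22.86 CPM. Crest and glial cells had 16.38 CPM, lower in 6 of 6 libraries by a ratio of 1.233 but with overlapping ranges. Paraxial mesoderm had 12.95 CPM, foregut mesoderm 6.896 CPM and erythroid cells 0.5283 CPM. At equal depth 8.968% of crest mesenchyme and 0.2085% of erythroid cells had a UMI. Crest mesenchyme held 53.02% of all Foxd2 UMIs.

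The antisense neighbour Foxd2os starts 0.4 kb from Foxd2 on the plus strand (chr4:114909257-114921967) and had the pattern nearest to it (r 0.9351, ahead of Nkd2 with 0.9072, Slitrk6 with 0.8685 and Zfhx4 with 0.8645). Its order of types was the same at the top, with 79.77 CPM in crest mesenchyme, 60.1 CPM in crest and glial cells and 44.21 CPM in paraxial mesoderm. The exons of the pair do not overlap in the annotation. The 250 bases before the RefSeq start of Foxd2 (GRCm38.p6, chr4:114908899-114909148, minus strand) fill most of the gap between the 2 starts and are printed for that reason, with the CG dinucleotides in capitals.

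Foxd2 promoter: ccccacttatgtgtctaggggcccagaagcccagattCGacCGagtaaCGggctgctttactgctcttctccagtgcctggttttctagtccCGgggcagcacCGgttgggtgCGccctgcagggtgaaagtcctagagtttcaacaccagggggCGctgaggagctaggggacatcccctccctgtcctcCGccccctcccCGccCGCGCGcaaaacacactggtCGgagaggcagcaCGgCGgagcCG

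This window holds 16 CG dinucleotides and is 64.4% G or C. Of 32851 promoter windows of the same length, 25.44% hold as many or more, and the median is 6. Both strands were searched for 4 short motifs, and none of them occurs in the Foxd2 window. The letters TGTTTAC, a core bound by forkhead proteins, occur in 3.166% of all windows. The letters GACCACCCA, a core bound by Gli proteins, occur in 0.2253%. The letters TATAAA occur in 12.37%, and the letters CCAAT in 33.85%. RefSeq windows were matched for 4 of the 7 genes, namely Foxf2, Foxc1, Foxd1 and Foxd2, with 21, 29, 12 and 16 CG dinucleotides. CCAAT occurs in those of Foxc1 and Foxd1. Foxf1, Foxc2 and Foxp2 are named only.

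Foxp2 (ENSMUSG00000029563; chr6:14901349-15441977, plus strand, 20 annotated transcripts), which acts with Foxp1 in lung and with other Foxp proteins in the brain, was found in nearly every tissue. Its foregut level was 747 CPM (738.9 to 755.1, 32819 UMIs), and 98.17% of foregut cells had a UMI. The 6 libraries gave 629.7, 473.6, 794.5, 768.5, 743.3 and 750.8 CPM. Pharyngeal mesoderm was second at 437.2 CPM, with 431.8, 469.6, 442.8, 411, 454.9 and 415.4 CPM. The foregut level was 1.709-fold higher in 6 of 6 libraries, and the ranges did not overlap. Paraxial mesoderm stood at 394.9 CPM, and crest and glial cells, muscle, crest mesenchyme and endoderm lay together between 231.9 and 244.3 CPM. Cardiomyocytes had 81.6 CPM and endocardial cells 60.63 CPM. Erythroid cells had 9.706 CPM, with a lowest library of 2.008 CPM and a highest of 28.26 CPM. Cluster 4, which held 1367 of the 1439 erythroid cells, had 0.5957 CPM. The class value therefore came mostly from the other erythroid cells, and whether it is free RNA was not tested. The genes with the nearest pattern were Pcdh18 (0.94), Neurl4 (0.9365), Col11a1 (0.9354) and Rnf227 (0.933).

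Inside the foregut and nearby clusters the genes varied further. Foxp2 was highest in cluster 36, at 1444 CPM, with 1539, 1383, 1396 and 1451 CPM in libraries 3 to 6, and the same cluster had 474.4 CPM of Foxf1. Cluster 13 had 864 CPM of Foxp2, 433.8 CPM of Foxf1 and 115.9 CPM of Foxd1. Cluster 12 had 548.9 CPM of Foxp2 and 321.6 CPM of Foxf1 but 19.46 CPM of Foxd1. So Foxd1 divided foregut clusters that all carried Foxf1. Cluster 28 had 250.4 CPM of Foxf1, from 152.8 CPM in library 3 to 318.8 CPM in library 5. Cluster 0 (Alx1, Chsy3), of which 88.55% was ungated mesenchyme, was low in several of the genes. It had 3.315 CPM of Foxf1, 4.508 CPM of Foxc1, 7.591 CPM of Foxd1 and 0.5422 CPM of Foxd2. Foxp2 was still at 253.9 CPM there.

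**Figure D3:**
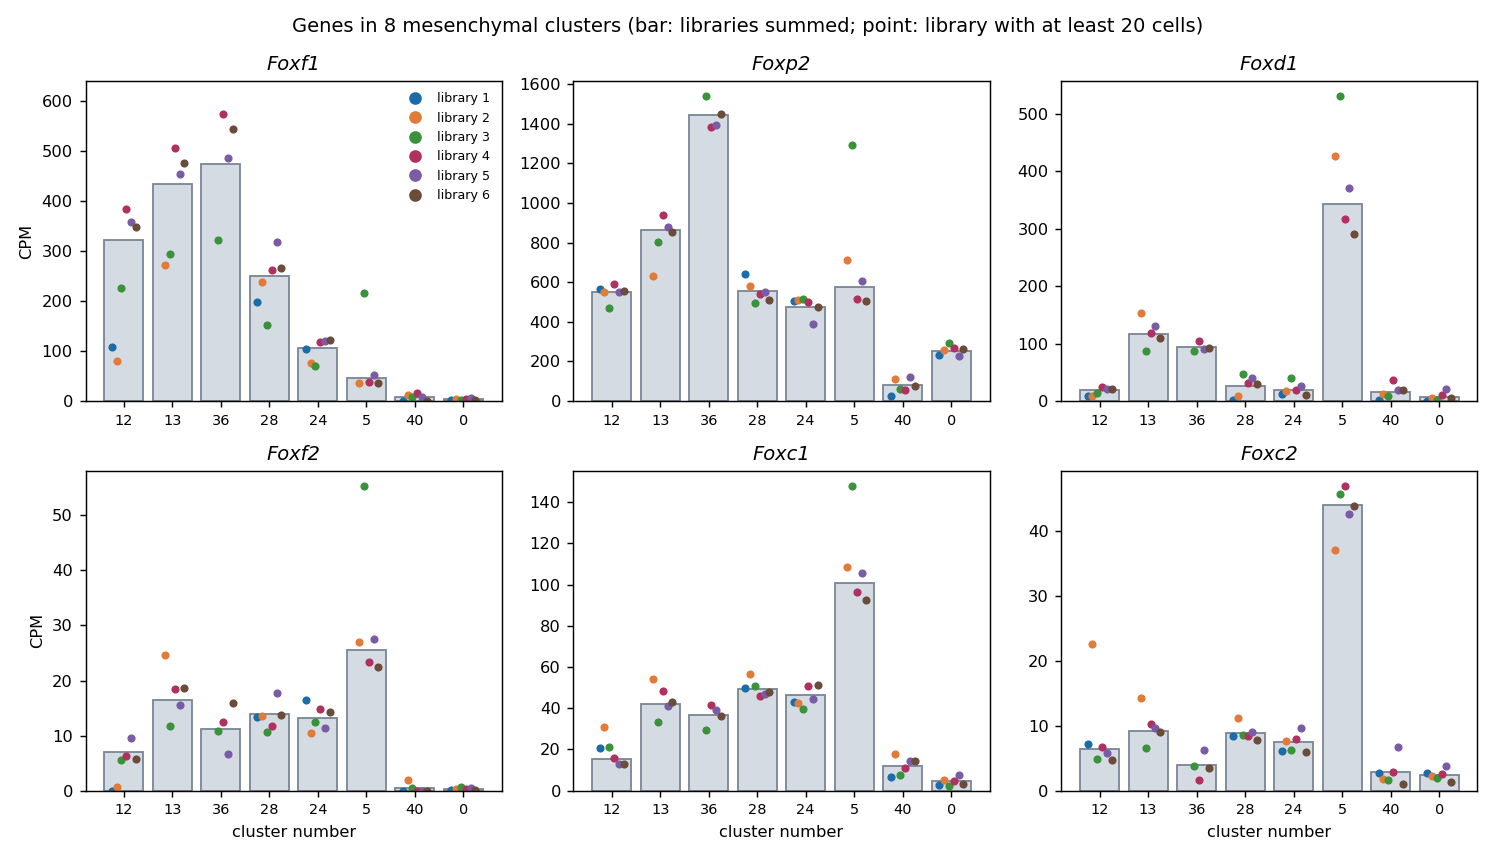
Level (CPM, linear axis from 0) of 6 of the genes in 8 mesenchymal clusters, given by number, with a bar for all libraries summed and a point for each library with at least 20 cells. Foxf1 is highest in clusters 12, 13, 36 and 28, Foxd1, Foxc1, Foxc2 and Foxf2 peak in cluster 5, and Foxp2 peaks in cluster 36 with 575.7 CPM in cluster 5.

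The first comparison set crest-derived against mesodermal mesenchyme, the latter being foregut, pharyngeal and paraxial cells together (2984 cells). A gene was counted as different when the summed level differed at least 2-fold with the same direction in every library with 20 cells of both, among genes with a mean of at least 5 CPM. Of 10242 genes, 8.65% met this, 1.05% as higher in crest mesenchyme and 7.6% as lower. Of the 7 forkhead genes 4 met it, 1 as higher and 3 as lower. Their median log2 ratio was -1.29 against -0.09 over all genes.

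Foxd2 was the gene that was higher in crest mesenchyme, 20.19 against 6.012 CPM, or 3.358-fold. The mesodermal libraries gave 2.596, 3.752, 3.898, 7.309, 7.265 and 6.854 CPM, all below the lowest crest value of 16.73 CPM. Foxf1 was 9.783-fold lower in crest mesenchyme, at 21.89 against 214.1 CPM. Its crest libraries lay between 16.51 and 28.45 CPM, and its mesodermal libraries at 55.75, 48.02, 188.9, 268.3, 248.5 and 272.2 CPM. Within the mesodermal pool, Foxf1 stood at 395.5 CPM in foregut, 51.6 CPM in pharyngeal and 17.39 CPM in paraxial mesoderm. The paraxial value lay below that of crest mesenchyme. Foxp2 was 2.45-fold lower (237.4 against 581.8 CPM). Within the pool Foxp2 stood at 747 CPM in foregut, 437.2 CPM in pharyngeal and 394.9 CPM in paraxial mesoderm. The pharyngeal and paraxial values lay within 2-fold of crest mesenchyme. Foxf2 was 3.5-fold lower (2.254 against 7.891 CPM), with a mean near the 5 CPM minimum. It was no longer counted with equal weights, without library 3 (2.299 against 7.699 CPM), without library 4 (2.224 against 7.67 CPM), without library 5 (2.193 against 7.765 CPM), with 1 marker more, with clusters and after thinning. Foxc1 (41.02 against 30.87 CPM) and Foxc2 (7.552 against 8.268 CPM) stayed within 2-fold. Foxd1 was 3.194-fold lower in the sums but not in library 1, where crest mesenchyme had 27.2 CPM and mesodermal mesenchyme 2.902 CPM, so it was not counted. Without library 1 it was, at 17.07 against 65.91 CPM. Pharyngeal mesoderm alone had 3.015 CPM of Foxd1, below the 19.2 CPM of crest mesenchyme. Library 1 held 12 paraxial and 47 foregut cells.

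Of 5 neighbouring genes tested in this comparison, 3 were different. Foxd2os was 4.017-fold higher in crest mesenchyme (79.77 against 19.86 CPM), and Fendrr (2.094 against 41.99 CPM) and Foxl1 (0.4319 against 11.6 CPM) were lower, while Mthfsd had 14.9 against 14.79 CPM. Of the other forkhead genes 13 were tested, and 4 were lower, among them Foxp1, Foxl1 and Foxp4. Of 10 hedgehog pathway genes 2 were lower and none higher. These were Hhip, a hedgehog-binding inhibitor and target (8.61 against 74.09 CPM), and the co-receptor Boc (14.25 against 32.22 CPM). Gli1, a direct target, had 7.54 against 14.93 CPM. Of 4 oral crest genes tested, Barx1 and Gsc were higher.

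Hox genes mark the arches behind the first, so crest mesenchyme with at most 1 of 6 Hox genes detected (1682 cells) was set against that with 2 or more (4362 cells). Over all genes 0.882% were different by the same rule, 0.236% as higher in Hox-low cells and 0.646% as lower. Of the 6 forkhead genes tested 1 was, Foxd1, which was 2.185-fold higher in Hox-low cells (33.18 against 15.19 CPM). Hox-low against Hox-positive values were 35.37 and 24.46 CPM in library 1, 20.36 and 14.14 in library 2, 59.03 and 24.65 in library 3, 24.45 and 9.094 in library 4, 20.74 and 8.676 in library 5, and 20.73 and 8.081 in library 6. The direction held in 6 of 6 libraries, while the ranges overlapped. Without library 3 the sums were 25.8 against 13.57 CPM, under 2-fold, and 0 of the 6 genes met the rule, as with whole clusters in place of gates. The median log2 ratio of the 6 was 0.10, against 0.01 over all genes. Foxp2 had 170.1 against 256.7 CPM and Foxc1 34.07 against 43.02 CPM. Hox-low cells were shallower, with a median of 33545.5 UMIs against 42480.5, and the part of depth in these values was not tested.

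Hand2 marks the distal part of the arches, so Hox-low crest mesenchyme with at least 2 Hand2 UMIs (957 cells) was set against that with none (570 cells). Over all genes 3.24% were different, 2.18% as higher in Hand2-positive cells and 1.06% as lower. Of the 6 forkhead genes tested 1 was, Foxf1. It was 19.98-fold higher in Hand2-positive cells, at 41.72 CPM from 1416 UMIs against 2.088 CPM from 34 UMIs. In libraries 1 to 6 the Hand2-positive values were 18.75, 27.02, 32.15, 80.86, 46.06 and 59.54 CPM, and the negative ones 1.14, 5.925, 2.891, 0.5027, 1.736 and 0.8513 CPM. The ranges stood far apart. The level in negative cells was near the 1.947 CPM of all erythroid cells. It lay above the 0.2758 CPM of cluster 4, which held most erythroid cells. Hand2-positive cells had a median of 35945 UMIs and negative cells 29243.5, and the part of depth was not tested. Foxf2 had 3.683 against 0.9826 CPM, in the same direction in 6 of 6 libraries but under the 5 CPM needed for a test. Foxc1 went the other way in 6 of 6 libraries, with 25.11 against 49.19 CPM, a ratio of 1.959 that lies just inside the 2-fold limit. It passed the limit without library 2 (24.11 against 49.3 CPM), without library 6 (24.07 against 49.81 CPM) and without libraries 1 and 2 together (22.94 against 48.77 CPM). The median log2 ratio of the 6 was -0.30, against 0.05 over all genes.

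Among the pathway genes in the Hand2 comparison, Gli1 (11.08 against 5.281 CPM) and Hhip (17.97 against 7.369 CPM) were higher and none of the 10 hedgehog genes was lower. Of the 3 oral crest genes tested Gsc was higher and Barx1 lower, and of 3 vascular genes Hey1 and Notch1 were lower. Both crest comparisons use the Hox-low cells. By cluster, Foxf1 in crest mesenchyme was high in clusters 22 (Dkk1, Hand1) and 11 (Hand1, Gsc), at 84.66 and 69.21 CPM. It was at 6.715 CPM in cluster 1 (Dlx6os1, Hmx1, Barx1) and 1.008 CPM in cluster 26 (Pou3f3, Dcc, Dlx1). Cluster 26 as a whole had 36.36 CPM of Foxd2, above the 20.19 CPM of crest mesenchyme as a whole. Its cells were spread unevenly, with 43, 8, 0, 194, 147 and 298 in libraries 1 to 6.

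The last comparison set endocardial against other endothelial cells, since Foxc genes act in endothelium. Endocardial cells had at least 4 of the 5 endocardial markers and other endothelial cells at most 2. The 489 cells between, with 7.138% of all Foxc2 UMIs, were left out. Median depths were 40590 UMIs in endocardial and 33023 in other endothelial cells, and the part of depth in this split was not tested. Over all genes 7.96% were different, 4.91% as higher in endocardial cells and 3.04% as lower. Of the 4 forkhead genes tested 1 was. Foxc2 was 2.265-fold higher in endocardial cells (50.83 against 22.44 CPM), in 6 of 6 libraries. The other endothelial libraries gave 22.13, 24.26, 19.09, 14.52, 25.33 and 26.38 CPM, all below the lowest endocardial value of 38.98 CPM. The 2-fold limit was not reached when whole clusters, each under its most common gate, replaced the gates, with 46.31 against 29.7 CPM. After thinning to 5000 UMIs the values were 49.38 against 23.55 CPM, higher in 5 of 6 libraries, and Foxc2 was not counted. By cluster, Foxc2 stood at 59.49 CPM in cluster 14 (Klhl4, Adgrg6, Npr3) and 29.65 CPM in cluster 21 (Cldn5, Emcn, Cd34). Cluster 23 (Igfbp7, Pdlim3, Hapln1), whose most common gate is also endocardial, had 27.84 CPM. Of its gated cells 52.79% were endocardial, and it lay above cluster 21 in 3 of the 6 libraries. The median log2 ratio of the 4 was 0.30, against 0.04 over all genes. Foxc1 had 28.34 against 20.64 CPM and Foxp2 60.63 against 54.47 CPM. Foxf1 had 5.586 against 10.32 CPM, and in endocardial cells its libraries ranged from 1.652 CPM in library 1 to 15.33 CPM in library 4. Libraries 1 to 3 lay at or below 4.363 CPM and libraries 4 to 6, which had the most foregut cells, at or above 6.724 CPM. Foregut cells made up similar shares of library 3 (5.058%) and library 4 (5.143%), however. In cluster 21 the order was different, with 3.164, 0.745, 29.31, 16.94, 11.82 and 16.39 CPM of Foxf1 in libraries 1 to 6. The part of free RNA in these values was not tested.

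Of 8 vascular genes tested in the same comparison, 3 were lower in endocardial cells, namely the Notch target Hey1 (22.46 against 54.73 CPM), Notch4 and Flt4, and none was higher. Of 10 other forkhead genes, Foxp1 (344.1 against 163.2 CPM) and Foxp4 (57.07 against 28.42 CPM) were higher.

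**Figure D4:**
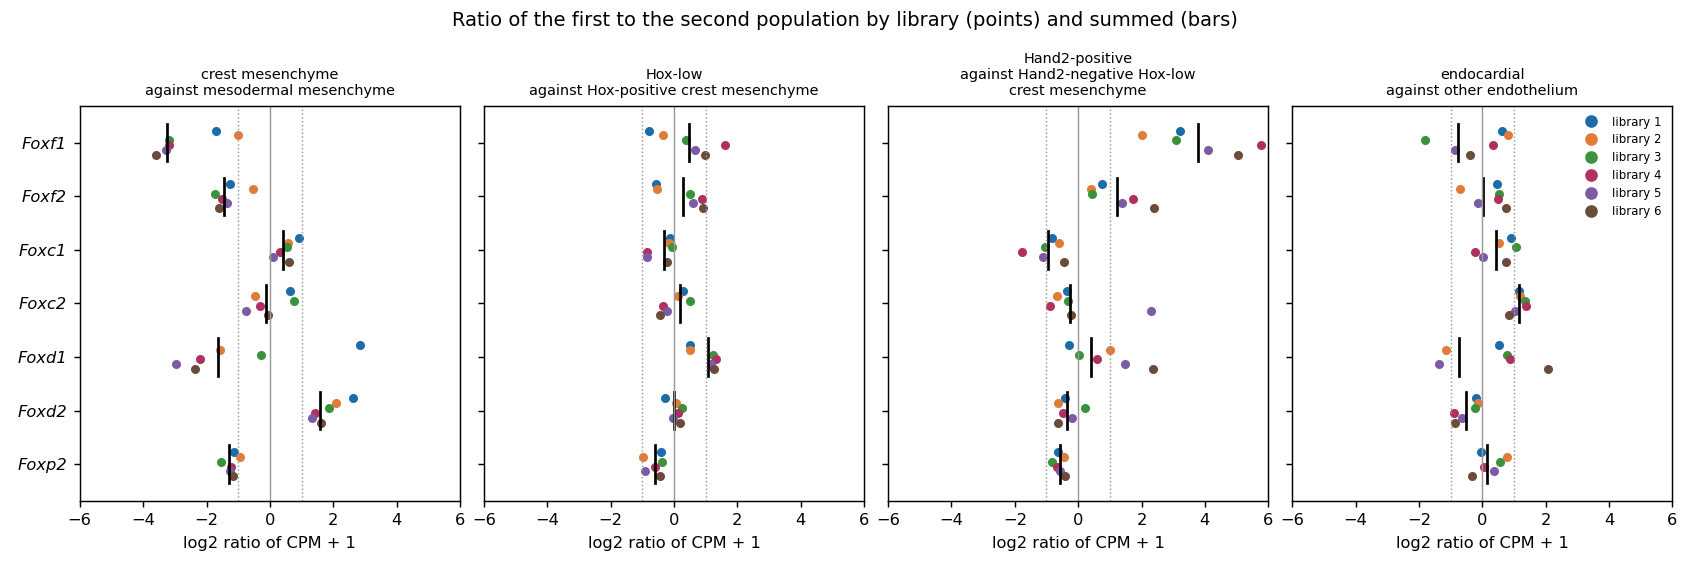
Log2 ratio of CPM + 1 between the first and second population of the 4 comparisons, with a point per library and a black bar for all libraries summed, and dotted lines at a 2-fold difference. Foxf1 lies left of 0 in every library for crest against mesodermal mesenchyme and right of 0 in every library for Hand2-positive against Hand2-negative cells.

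Across all 17 types, hedgehog genes were compared with the 7. All 10 reached 10 CPM in some type, and 5 were highest in foregut mesoderm, among them the receptor Ptch1 (239.8 CPM), Hhip (123.3 CPM), the transducer Smo (101.1 CPM) and Gli1 (17.64 CPM). In pharyngeal mesoderm Smo (94.62 CPM) and Gli1 (14.76 CPM) were close behind. A further 3 were highest in paraxial mesoderm. Of all 11944 genes that reach 10 CPM in some type, 4.873% were highest in foregut and 2.989% in paraxial mesoderm. Of 11 oral crest genes 5 reached 10 CPM, and Barx1 (232.2 CPM) and Gsc (19.92 CPM) were highest in crest mesenchyme, as 5.534% of all genes were. Pax9 was highest in endoderm (96.21 CPM), Alx1 in crest and glial cells (47.7 CPM) and Six2 in pharyngeal mesoderm (38.28 CPM). Pax9 and Alx1 are themselves gate markers, for endoderm and for crest mesenchyme, so their own counts helped to assign the cells. Of 9 vascular genes, 4 were highest in other endothelium and 2 in endocardial cells, as 5.417% and 4.839% of all genes were. Among the 37 other forkhead genes 19 reached 10 CPM, and the highest levels were those of Foxp1 in foregut mesoderm (642.5 CPM), Foxn3 in muscle (365.1 CPM), Foxe1 in endoderm (177.3 CPM) and Foxp4 in foregut mesoderm (138.7 CPM). So all 3 Foxp genes named here had their highest level in foregut mesoderm.

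The level of some of the genes differed with depth inside types. Cells with fewer than 15000 UMIs, a limit chosen after the data were seen, had less Foxp2 than deeper cells in 8 of the 9 types with at least 20 such cells. The difference was at least 2-fold in 5. In crest mesenchyme the 459 shallow cells had 51.91 CPM and the 5585 deeper ones 241.6 CPM, a ratio of 4.654. In epicardium the values were 14.76 and 133.9 CPM. In foregut mesoderm they were closer, at 512.2 and 749.4 CPM, and in endoderm shallow cells were higher, at 272.3 against 230.4 CPM. Foxf1 was lower in shallow cells of 9 of 9 types (9.06 against 22.17 CPM in crest mesenchyme), at least 2-fold in 6, of which 5 rest on at most 8 UMIs in the shallow cells, and Foxc1 in 6 of 9 (24.73 against 41.39 CPM in crest mesenchyme). Foxd1 was at least 2-fold lower in 7 of 9, each time from at most 5 UMIs in the shallow cells, and in crest mesenchyme it had 20.01 against 19.18 CPM. Foxc2 was lower in shallow cells of 3 of 9 types, and Foxf2 and Foxd2 in 5 of 9 each. Cluster 2 (Hmx1, Barx1, Dlx6; median 12618 UMIs) had 16.08 CPM of Foxp2, against 187.7 CPM in cluster 1, which shares leading genes with it and has a median of 38135 UMIs. RNA quality in these cells was not tested. The split by depth was made for the 7 genes only, so no share over all genes stands beside these counts.

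**Figure D5:**
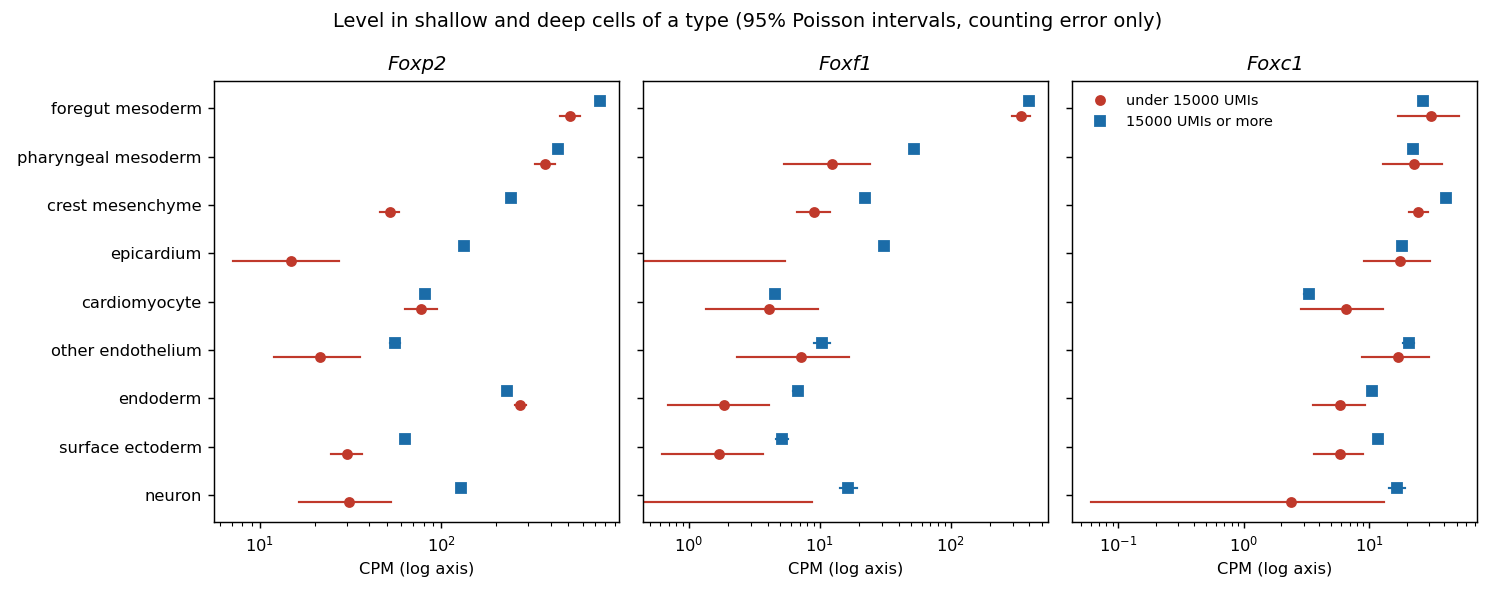
Level (CPM, log axis) of Foxp2, Foxf1 and Foxc1 in cells with fewer than 15000 UMIs (red circles) and in deeper cells (blue squares) of 9 types, with 95% Poisson intervals. In crest mesenchyme Foxp2 lies at 51.91 CPM in shallow and 241.6 CPM in deeper cells, and values of 0 (Foxf1 in shallow epicardial and neuronal cells) lie off the axis.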

How the data were processed

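Single-cell libraries (10x 3' kit) of the cardiogenic region were counted by the authors, and the deposited matrix holds raw UMI counts per gene and barcode, made with Cell Ranger 5.0.0 per the file headers. CASAVA 1.8, Seurat 4 and the mm10 build are named in the submitters' processing notes, with no roles given. One label field names a chromatin assay, while the sample titles, the kit and the values are those of RNA sequencing. The 6 libraries are pooled in 1 matrix and were split by barcode suffix. The map from suffix to dam is not given in the sources used here, so the planned comparison of maternal groups was not made.

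The 7 genes, the marker lists and the gene lists (hedgehog, oral crest, vascular, neighbouring genes, other forkhead genes) were chosen with earlier results of these data known. The number of markers each gate asks for was set after class sizes were seen, never from a forkhead gene. Cells that met more than 1 of the mutually exclusive gates were left out (1210 cells). Named genes were the 7 genes, those lists, and for each gene the 4 with the highest r over types. Cluster leading genes only identify clusters. Some listed genes are not reported here. Of the table's gene IDs 99.61% were found in GENCODE M21. UMIs were summed per type and library in Python 3.11.15 with numpy 2.4.6 and scipy 1.17.1, and clusters (50) came from leidenalg 0.10.2 on 40 principal components of 3000 variable genes without forkhead genes. Doublets were kept in the reported values; removal by simulated-doublet score was an alternative. Counts were not tested across the 6 libraries, which could not be mapped to the study's groups and so are not replicates of 1 group. The count rule was run on simulated Poisson counts with planted changes larger than the 2-fold limit. The simulated libraries had no spread beyond counting error, so the run does not measure wrong or missed counts in these data. Alternatives left out each library, thinned cells to 5000 UMIs, changed cell filters, gates and the CPM minimum, and replaced gates by clusters.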

Additional observations from a re-analysis of the deposited data

How the results depend on the processing

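Of 79 alternative values for the 5 counts of genes, 67 stayed within the limits set for them and 12 moved. Leaving out a library cannot break a direction shared by every library, so those settings do not test that part of the rule. Staying within the limits did not mean an unchanged count. Values of 4 and 5 against a reported 6, and of 3 and 5 against a reported 4, were among the 67. The number of genes whose leading type lay above the next in every library, 6 as reported, was 2 with clusters in place of gates, 3 after thinning to 5000 UMIs, 4 with 1 marker more in every gate or with doublets removed, and 5 without cells under 15000 UMIs. The crest and mesoderm count, 4 as reported, was 3 in 7 settings (equal weights, without library 3, 4 or 5, 1 marker more, clusters, thinning), each time without Foxf2. It was 5 without library 1 and without libraries 1 and 2 together, with Foxd1 added as lower. The Hand2 count, 1 as reported, was 2 with no minimum CPM (Foxf2 added), 2 with 1 marker more in every gate and 2 without libraries 1 and 2 together (Foxc1 added), and leaving out 1 library at a time gave 1 to 2, with 2 without library 2 and without library 6. The Hox count, 1 as reported, was 0 with clusters, and leaving out 1 library at a time gave 0 to 1, with 0 without library 3. The endothelial count, 1 as reported, was 2 with no minimum CPM (Foxd2 added as lower), 0 with clusters and 0 after thinning, where Foxc2 had 49.38 against 23.55 CPM and was higher in 5 of 6 libraries. The leading type was unchanged for 7 of 7 genes in 14 of the 15 settings, the exception being clusters, where Foxf2 moved to paraxial mesoderm. Leading levels ranged over all settings from 309 to 423.8 CPM for Foxf1, 8.095 to 11.71 for Foxf2, 44.8 to 81.81 for Foxc1, 46.31 to 53.43 for Foxc2, 122.1 to 272.9 for Foxd1, 19.34 to 21.47 for Foxd2 and 689.6 to 781.1 for Foxp2. The lowest Foxd1 value came from asking for 1 marker more in every gate, and the causes of these moves were not tested. The settings that leave out cells under 15000 UMIs, or libraries 1 and 2 together, were chosen after seeing the data. Sparse UMIs limit Foxf2 most. No paired analysis was possible because no library could be tied to a numbered vehicle or streptozotocin sample, so the labels' replicate numbers pair nothing here. Populations were paired by library, as values with no test.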

Other observations

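Foxp2 differed between endodermal clusters. Cluster 17, led by Shh, Nkx2-1 and Sfta3-ps, had 521.7 CPM of Foxp2, and cluster 42 had 287.8 CPM. The other clusters whose most common gate is endoderm, 3, 15, 27 and 49, had 104, 96.58, 30.88 and 69.8 CPM. The libraries of cluster 17 ranged from 188.5 CPM in library 2 to 816 CPM in library 6, and in libraries 1 and 2 cluster 42 was the higher of the pair (350.7 against 305.7 and 368.3 against 188.5 CPM). Nkx2-1 is a gene of lung and thyroid endoderm. The cluster was chosen after its values were seen and carries no test.

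Several of the 7 genes were also detected per cell outside the named types. Ungated mesenchyme had a median of 2 of the 7 per cell. It had a UMI of at least 3 of the 7 genes in 43.43% of cells, and in 15.32% after thinning to 5000 UMIs.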
